A study of Mus musculus with 24 samples.

Results

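The Rab GTPase genes of MIN6 cells were examined after verapamil treatment. The members were the rows of the count table whose mouse symbol consists of Rab, a number and at most a letter and a further digit, so that genes for Rab-interacting proteins and pseudogenes stayed out. There were 47 such genes among the 12310 genes of the table, and all 47 passed the filter on low counts. MIN6 is a mouse β-cell line derived from an insulinoma, so the data come from a single tumour-derived line. Wild-type cells kept at 5.6 mM glucose received verapamil, a blocker of L-type calcium channels, at 50 µM over a period of 24 h, and the control cells went without it for the same period. RNA was sequenced from 12 libraries per group, which fall into 4 experiment sets with 3 libraries of each group.

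Rab proteins are small GTPases that mark the membranes of the secretory and endocytic pathways. In the GTP-bound state they sit on a membrane and recruit effectors, such as motors, tethers and docking proteins. Exchange factors switch them on, GTPase-activating proteins switch them off, and GDP dissociation inhibitors carry them back through the cytosol. In β-cells, members of the Rab3 and Rab27 groups sit on insulin granules and take part in their docking and release, while others act in the Golgi, the endosomes or the lysosomes.

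The paralogs that changed in opposite directions are shown by the coding stretch around the nucleotide-binding loop. Each line reads 5′ to 3′ on the coding strand of the GENCODE M21 transcript (GRCm38) with the longest complete coding sequence, and the capitals mark the 24 bases that encode the loop.
Rab3a: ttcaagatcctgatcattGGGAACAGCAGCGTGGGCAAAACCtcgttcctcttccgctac
Rab3d: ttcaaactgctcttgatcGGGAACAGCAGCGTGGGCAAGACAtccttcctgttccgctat
Rab3b: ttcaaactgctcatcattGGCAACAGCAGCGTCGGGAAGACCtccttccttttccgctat
Rab3c: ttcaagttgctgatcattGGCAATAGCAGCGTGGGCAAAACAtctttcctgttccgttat
Rab5c: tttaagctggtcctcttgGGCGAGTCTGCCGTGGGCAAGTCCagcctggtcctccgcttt
Rab5a: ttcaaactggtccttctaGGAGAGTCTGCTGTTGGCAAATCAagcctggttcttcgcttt
Rab8a: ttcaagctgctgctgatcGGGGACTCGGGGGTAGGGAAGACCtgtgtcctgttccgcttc
Rab8b: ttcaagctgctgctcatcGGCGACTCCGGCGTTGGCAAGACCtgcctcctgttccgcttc
Rab9: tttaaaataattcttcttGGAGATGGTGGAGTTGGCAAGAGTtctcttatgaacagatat
Rab9b: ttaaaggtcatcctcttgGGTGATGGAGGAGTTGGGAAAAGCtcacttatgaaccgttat

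Over the whole coding sequence, the compared paralogs were identical at 69.8% (Rab9 and Rab9b) to 79.7% (Rab3d and Rab3b) of the aligned bases. The longest run of identical coding bases was 33 in Rab3d and Rab3b and 13 in Rab9 and Rab9b. Rab7, Rab9b and Rab11b also have pseudogene rows in the table, so reads of these genes may be split between copies. Rab7-ps1 stood at 322 ± 18.9 CPM in control (reads scaled to a common library size after TMM; mean ± SD, n = 12) and at 392 ± 34.1 CPM with verapamil. Rab9b-ps1 stood at 16.7 ± 1.79 and 18.1 ± 3.81 CPM, beside 20.7 ± 1.67 and 12.7 ± 5.30 CPM for Rab9b. Rab11b-ps2 stood at 112 ± 8.05 and 119 ± 16.6 CPM. Exons of the called genes Rab3a, Rab3b, Rab4b, Rab5a, Rab6a, Rab7, Rab10, Rab11a, Rab18, Rab22a, Rab24, Rab40c and Rab43 overlap those of another annotated gene, so their counts are uncertain too.

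Total counts per library ranged from 12590476 to 32360171 in control and from 21840159 to 44806556 with verapamil. Rab genes took 0.614% to 0.648% of the counts in control libraries and 0.534% to 0.688% in verapamil libraries. Of 12 β-cell marker genes 11 were measured, of which 2 were higher with verapamil and 5 lower. Ins2 went from 1318 ± 160 to 635 ± 116 CPM, Slc2a2 from 171 ± 24.4 to 95.9 ± 14.6 CPM and Slc30a8 from 485 ± 41.9 to 265 ± 49.0 CPM, each below every control in 12 of 12 libraries. Mafa went from 697 ± 42.5 to 1260.2 ± 119 CPM, above every control in 12 of 12. Of the markers of other islet cells 1 of 7 was measured (Gcg), of acinar and duct cells 1 of 7 (Sox9) and of fibroblasts 1 of 5 (Pdgfra). Gcg stood at 186 ± 9.21 CPM in control and 260.4 ± 47.8 CPM with verapamil, Sox9 at 2.56 ± 0.757 and 1.39 ± 0.470 CPM, and Pdgfra at 1.05 ± 0.286 and 0.497 ± 0.361 CPM, and the part of any of these markers in the Rab results was not tested. In bulk RNA, fewer cells of a type and less RNA per cell cannot be told apart. The verapamil libraries also differed from the controls in a trend across genes, since transcripts rich in GC read higher and long transcripts lower. The correlation across genes of the log2 difference from the control mean with GC content ran from -0.20 to 0.17 in control libraries and from 0.04 to 0.64 in verapamil libraries, and 9 of 12 verapamil libraries lay above every control. This trend is set beside the Rab results, and its part in them was not tested.

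In untreated cells, the Rab genes covered a wide range of levels. Per kilobase of exon, Rab7, which governs traffic to lysosomes, stood highest at 286 ± 12.9 CPM per kb. Rab1a and Rab2a, which act between the ER and the Golgi, followed at 269 ± 9.43 and 264 ± 11.7 CPM per kb, and neighbours in this order overlapped in their mean ± SD ranges. Rab1b (169 ± 13.6 CPM per kb) and the early endosomal Rab5c (144 ± 7.74 CPM per kb) came next. Of the Rabs of regulated secretion, Rab37 was highest at 26.7 ± 1.26 CPM per kb and Rab3b next at 22.8 ± 0.731 CPM per kb. Rab3c stood at 7.96 ± 0.383 and Rab3a at 8.61 ± 3.64 CPM per kb, which did not differ beyond their spread. Rab27a was low at 0.968 ± 0.168 CPM per kb, and Rab6b was lowest of all at 0.447 ± 0.152 CPM per kb.

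**Figure D1:**
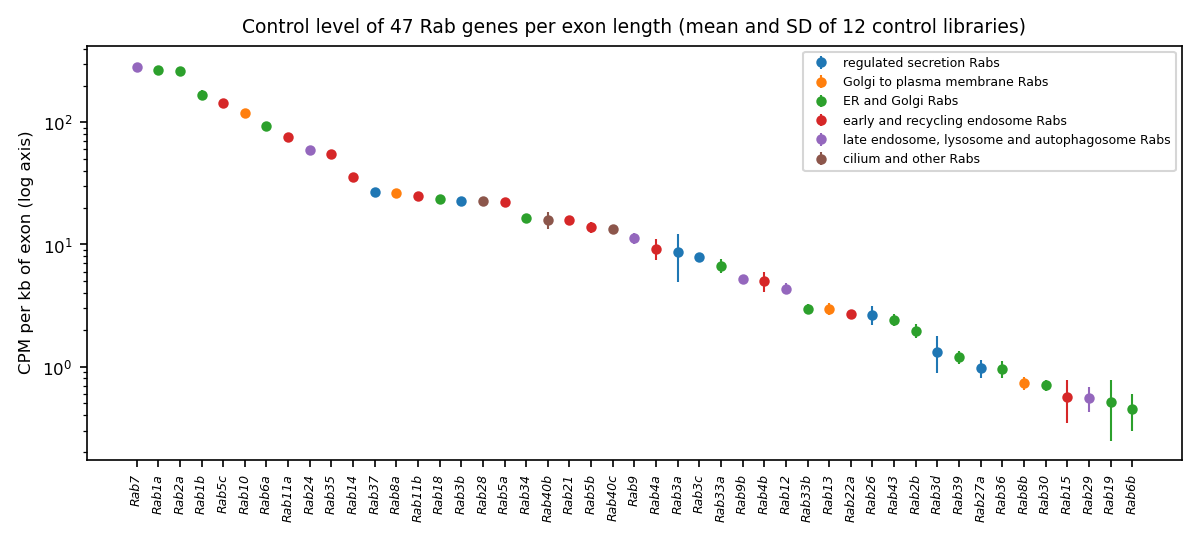
Control level of the 47 Rab genes in CPM per kb of exon (log axis), with points for the mean and bars for the SD of 12 control libraries, coloured by role. Rab7, Rab1a and Rab2a stand highest at 264 to 286 CPM per kb, and Rab6b stands lowest at 0.447 CPM per kb.

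The main comparison asked which Rab genes differ between verapamil-treated and untreated cells. With verapamil, 18 Rab genes were higher and 11 lower, and 18 did not pass the test (edgeR quasi-likelihood test, Benjamini-Hochberg adjusted p under 0.05 over all genes). The share of Rab genes called was 61.7%, against 62.8% of all 12306 genes tested. The share called higher was 38.3% of Rab genes against 31.2% of all genes, and the share called lower was 23.4% against 31.6%. The median log2 fold change of the Rab genes was 0.06, and that of all genes was -0.0033. In 4 Rab genes (Rab34, Rab37, Rab8a and Rab22a) every verapamil library lay above every control, which is 8.51% of the Rab genes against 4.95% of all genes. In 0 Rab genes did every verapamil library lie below every control, against 5.18% of all genes. When the GC and length slopes of each library entered the fit as covariates, 13 Rab genes were higher and 1 lower (21.2% and 14.1% of all genes), and 10 of the 29 called genes had the other direction. Without experiment set 2 there were 11 higher and 4 lower (23.4% and 8.51% of Rab genes, against 23.2% and 20.5% of all genes). Without set 3 there were 17 and 4 (36.2% and 8.51%, against 24.5% and 23% of all genes). With counts summed per set there were 15 and 2 (31.9% and 4.26%, against 24.4% and 17.3% of all genes). The paper describes 4 independent sets of experiments with 3 replicates processed in each, and nothing in the labels ties a library to a separate culture. The main test counts each library as independent, so its p-values measure the spread of replicates within a set in part. The sums per set take the set as the unit, and 17 of the 29 calls were kept there with their direction. Adjusted p-values below are from the main test unless another fit is named.

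**Figure D2:**
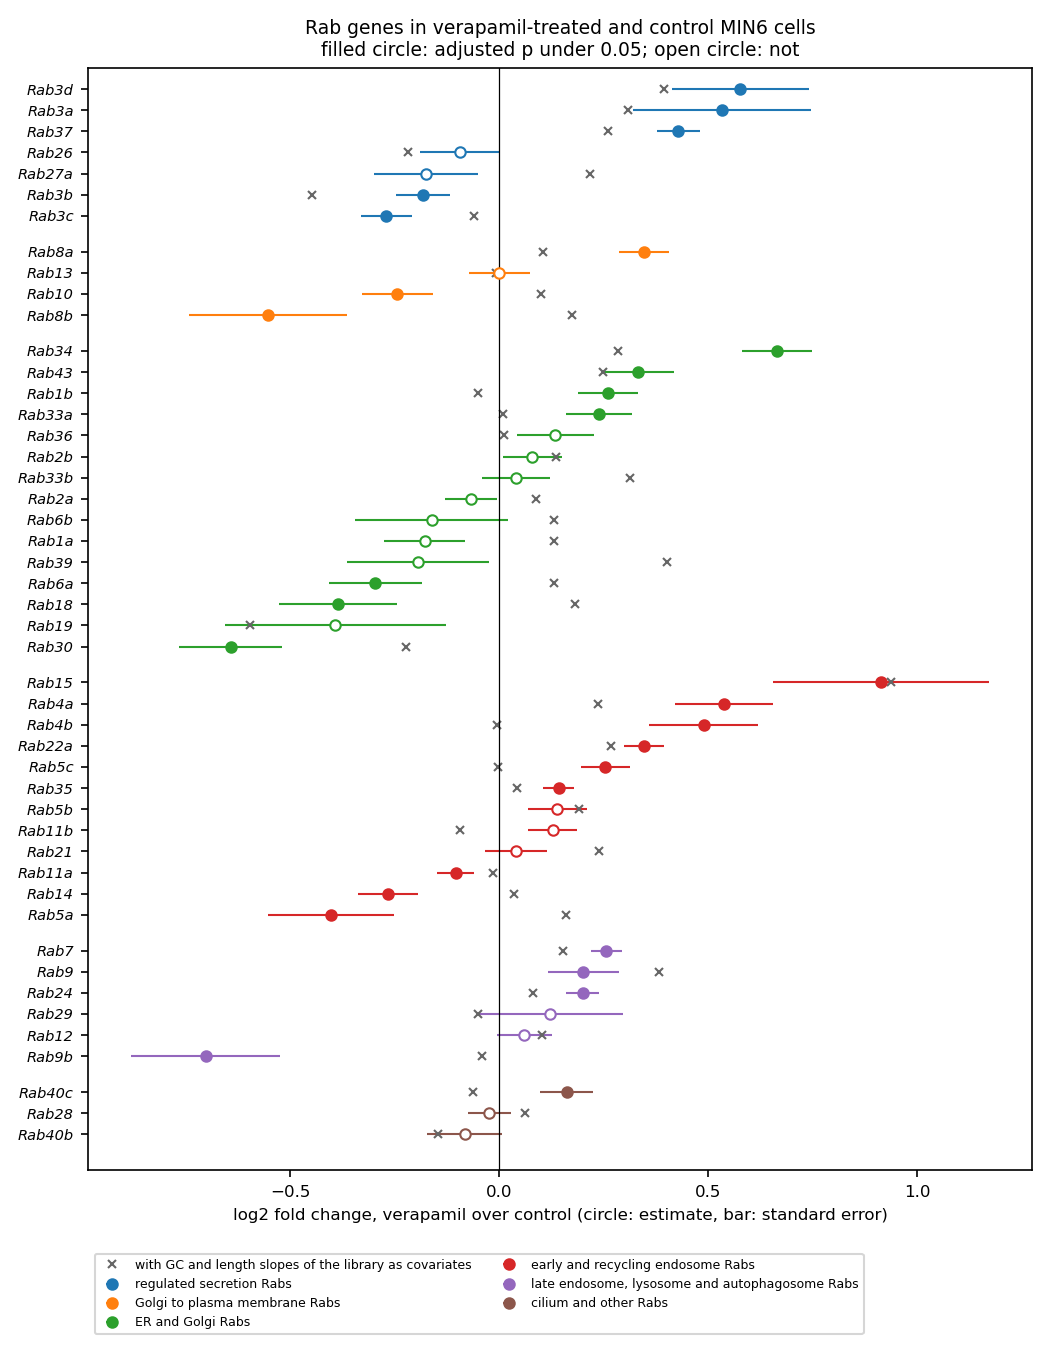
Log2 fold change of the 47 Rab genes with verapamil by role, with circles for the estimate (filled where adjusted p is under 0.05), bars for the standard error, and crosses for the estimate with the GC and length slopes of the library as covariates. The circles run from -0.70 (Rab9b) to 0.91 (Rab15), and for 10 of the 29 called genes the cross lies on the other side of 0.

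Of the 7 Rabs of regulated secretion, 3 were higher (Rab3a, Rab3d and Rab37), 2 lower (Rab3b and Rab3c), and Rab26 and Rab27a did not pass the test. Rab37, a Rab of secretory granules (chr11:115091431-115162236 in GRCm38, plus strand), was the most clearly separated. Its level ran from 130 to 153 CPM in control (median 142) and from 159 to 219 CPM with verapamil (median 190.1). All verapamil libraries were above all controls, and Rab37 rose by 0.43 ± 0.05 on the log2 scale (SE; adjusted p = 2.6e-07). With the GC and length slopes as covariates the log2 difference was 0.26 and still passed the test (adjusted p = 3.7e-05).

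Rab3a, a synaptic and insulin granule Rab, ran from 9.59 to 29.6 CPM in control (median 19.9) and from 12.9 to 38.3 CPM with verapamil (median 28.0). The groups overlapped widely, with 5 of 12 verapamil libraries above every control. Rab3a rose by 0.53 ± 0.21 on the log2 scale (adjusted p = 0.032). The call was lost without any one of the control libraries C2, C3, C4, C5 and C11 or the verapamil libraries V2, V7 and V8, with an adjusted p of up to 0.0562. Rab3d, its paralog on granules of secretory cells, ran from 3.24 to 9.27 CPM in control (median 5.40) and from 4.25 to 12.3 CPM with verapamil (median 7.98). Rab3d rose by 0.58 ± 0.17 on the log2 scale (adjusted p = 0.0042), with 4 verapamil libraries above every control. With the slopes as covariates neither gene passed the test, at 0.31 (adjusted p = 0.42) for Rab3a and 0.39 (adjusted p = 0.15) for Rab3d. When the GC and length trend was subtracted, Rab3d passed, at 0.43 (adjusted p = 0.020), and Rab3a did not, at 0.30 (adjusted p = 0.21).

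The other Rab3 paralogs were lower. Rab3b (chr4:108879063-108943324, plus strand) ran from 77.2 to 84.5 CPM in control (median 79.9) and from 55.4 to 95.1 CPM with verapamil (median 69.8). It had 8 verapamil libraries below every control and 1 above, and it fell by 0.18 on the log2 scale (SE 0.07, adjusted p = 0.018). Rab3b was the single Rab gene called lower with the slopes as covariates, at -0.45 (adjusted p = 2.1e-08). Rab3c ran from 89.7 to 106 CPM in control (median 95.7) and from 67.9 to 98.9 CPM with verapamil (median 74.5). It fell by 0.27 on the log2 scale (SE 0.06, adjusted p = 0.00051), with 9 verapamil libraries below every control. Rab3c was called higher when the GC and length trend was subtracted, at 0.55 (adjusted p = 0.00033), but stood at -0.06 with the covariates (adjusted p = 0.37). Rab27a, which docks insulin granules through its effectors, had a log2 difference of -0.17 ± 0.12 (adjusted p = 0.22). The value turned to 0.22 with the covariates and was -0.07 with the trend subtracted. Rab26, a Rab of secretory granules, had a log2 difference of -0.09 ± 0.10 (adjusted p = 0.41), which turned to 0.03 without experiment set 1. With the trend subtracted Rab26 was called lower, at -0.31 (adjusted p = 0.0069), and with the covariates it stood at -0.22 (adjusted p = 0.21).

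**Figure D3:**
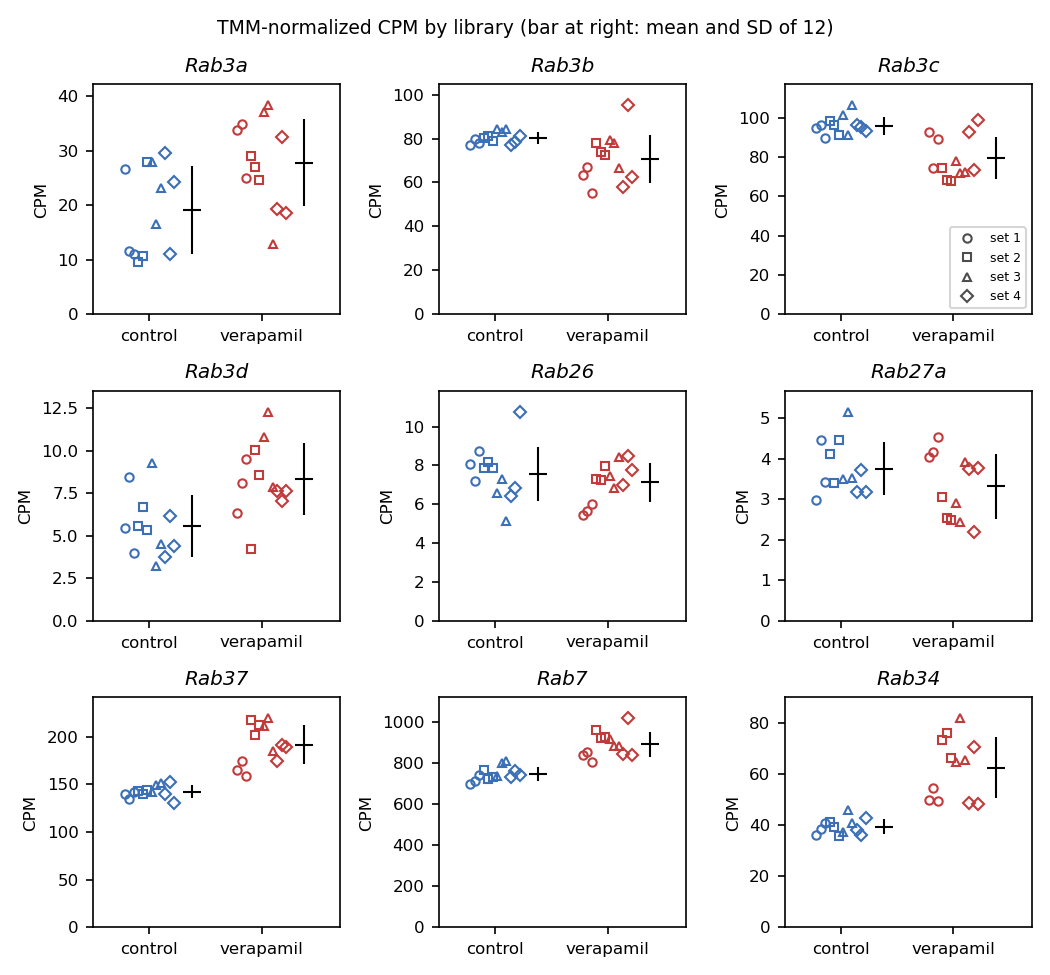
TMM-normalized CPM of the 7 Rabs of regulated secretion, Rab7 and Rab34 in each library, with symbols for the experiment set and bars for the mean and SD of 12 libraries. For Rab37 and Rab34 all 12 verapamil libraries lie above all 12 controls, whereas the groups overlap for the Rab3 paralogs, Rab26 and Rab27a.

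Of the 4 Rabs between the Golgi and the plasma membrane, 1 was higher, 2 lower and 1 (Rab13) was not called. Rab8a, which drives transport to the cell surface and the cilium, ran from 114 to 130.3 CPM in control (median 126) and from 132 to 188 CPM with verapamil (median 158). The groups did not overlap, and Rab8a rose by 0.35 ± 0.06 on the log2 scale (adjusted p = 3.5e-05). Its value with the covariates was 0.11 (adjusted p = 0.079), and with the trend subtracted it passed, at 0.35 (adjusted p = 8.2e-05). Rab8b, its paralog, ran from 2.63 to 4.06 CPM in control and from 1.11 to 4.62 CPM with verapamil, and fell by 0.55 on the log2 scale (SE 0.19, adjusted p = 0.014). Rab8b stood at 0.17 with the covariates and at -0.07 with the trend subtracted, and passed in neither. Rab10, which moves vesicles to the surface, ran from 405 to 440.3 CPM in control and from 213 to 437 CPM with verapamil. It fell by 0.24 on the log2 scale (SE 0.08, adjusted p = 0.015), but was called higher with the covariates, at 0.10 (adjusted p = 0.043), and stood at 0.02 with the trend subtracted.

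Of the 15 Rabs of the ER and the Golgi, 4 were higher, 3 lower and 8 not called. Rab34, a Rab of the Golgi and the forming cilium (chr11:78188430-78192193, plus strand), ran from 35.6 to 45.8 CPM in control (median 38.9) and from 48.3 to 81.7 CPM with verapamil (median 65.1). The groups did not overlap, and Rab34 rose by 0.66 ± 0.08 on the log2 scale (adjusted p = 5.5e-07), with 0.29 under the covariates (adjusted p = 0.00018). Rab43, which acts in ER to Golgi sorting, rose by 0.33 ± 0.09 (adjusted p = 0.0021), with 8 verapamil libraries above every control. Rab1b, needed for ER to Golgi transport, rose by 0.26 ± 0.07 (adjusted p = 0.0032) but stood at -0.05 with the covariates.

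The 3 members of this group that were lower had GC contents of 38.1% to 44.6%. Rab30, a Golgi Rab with a GC content of 38.1%, ran from 5.71 to 7.78 CPM in control and from 2.34 to 5.84 CPM with verapamil. It fell by 0.64 on the log2 scale (SE 0.12, adjusted p = 0.00012), with 11 verapamil libraries below every control. Rab30 stood at 0.25 when the trend was subtracted (adjusted p = 0.094) and at -0.22 with the covariates (adjusted p = 0.16). Rab18, of lipid droplets and the ER, fell by 0.38 (SE 0.14, adjusted p = 0.021) but was called higher with the covariates, at 0.18 (adjusted p = 0.022), and with the trend subtracted, at 0.29 (adjusted p = 2.1e-05). Rab6a, of retrograde Golgi transport, fell by 0.30 (SE 0.11, adjusted p = 0.023). It stood at 0.13 with the covariates and at -0.05 with the trend subtracted, and passed in neither. The abundant Rab1a and Rab2a had log2 differences of -0.18 ± 0.10 (adjusted p = 0.11) and -0.07 ± 0.06 (adjusted p = 0.36), which turned to 0.13 and 0.09 with the covariates.

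Of the 12 Rabs of early and recycling endosomes, 6 were higher, 3 lower and 3 not called. Rab15, a Rab of endosomal recycling (chr12:76797960-76822908, minus strand), ran from 1.06 to 4.10 CPM in control (median 2.46) and from 1.34 to 7.57 CPM with verapamil (median 5.25). It rose by 0.91 ± 0.26 on the log2 scale (adjusted p = 0.0039), the largest increase among the Rab genes, with 8 verapamil libraries above every control. Its value with the covariates was 0.94 (adjusted p = 0.035). The recycling Rab4a rose by 0.54 ± 0.12 (adjusted p = 0.00044) and its paralog Rab4b by 0.49 ± 0.13 (adjusted p = 0.0025). With the covariates neither passed, at 0.24 (adjusted p = 0.16) for Rab4a and -0.0048 (adjusted p = 0.98) for Rab4b. With the trend subtracted Rab4a passed, at 0.29 (adjusted p = 0.014), and Rab4b did not, at 0.22 (adjusted p = 0.059). Rab22a, which acts between early and recycling endosomes and is named here after its values were seen, ran from 17.97 to 20.96 CPM in control and from 22.1 to 29.5 CPM with verapamil. The groups did not overlap, and Rab22a rose by 0.35 ± 0.05 (adjusted p = 1.8e-06), with 0.27 under the covariates (adjusted p = 0.00028).

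Rab5a and Rab5c, which direct fusion of early endosomes, differed in direction. Rab5c ran from 293 to 353 CPM in control and from 317 to 439 CPM with verapamil, and rose by 0.25 ± 0.06 (adjusted p = 0.00078), but stood at -0.0035 with the covariates. Rab5a ran from 107 to 125 CPM in control and from 38.9 to 123 CPM with verapamil, and fell by 0.40 on the log2 scale (SE 0.15, adjusted p = 0.023). It was called higher with the covariates, at 0.16 (adjusted p = 0.030), but stood at -0.24 with the trend subtracted (adjusted p = 0.061). Rab5b, the remaining paralog, had a log2 difference of 0.14 ± 0.07 (adjusted p = 0.089). Rab14, which links the Golgi and endosomes, fell by 0.27 (SE 0.07, adjusted p = 0.0025) but stood at 0.04 with the covariates and was called higher with the trend subtracted, at 0.48 (adjusted p = 4.2e-05). Rab11a, of the recycling endosome, fell by 0.10 (SE 0.04, adjusted p = 0.042) but was called higher with the trend subtracted, at 0.52 (adjusted p = 0.00014). With the covariates Rab11a stood at -0.02 (adjusted p = 0.74). Its call was lost without any one of C4, C6, C8, C9, C11, C12, V4, V5, V6, V7, V8 and V9, with an adjusted p of up to 0.079.

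Of the 6 Rabs of late endosomes, lysosomes and autophagosomes, 3 were higher, 1 lower and 2 not called. Rab7 (chr6:87999106-88045270, minus strand) ran from 698 to 809.6 CPM in control (median 738) and from 803 to 1017 CPM with verapamil (median 883). It had 11 verapamil libraries above every control and rose by 0.26 ± 0.04 on the log2 scale (adjusted p = 4.6e-06), with 0.15 under the covariates (adjusted p = 0.0016). Rab24, linked to autophagy, rose by 0.20 ± 0.04 (adjusted p = 0.00018). It stood at -0.03 with the trend subtracted and at 0.08 with the covariates, and passed in neither. Rab9, which returns cargo from late endosomes to the Golgi, rose by 0.20 ± 0.08 (adjusted p = 0.042), and the call was lost without any one of C1, C2, C3, C5, C6, C7, C10, C11, V1, V2, V3, V4, V10, V11 and V12, with an adjusted p of up to 0.0876. The call of Rab9 was also lost with the experiment set as a block (adjusted p = 0.051) and over sums per set (adjusted p = 0.17). Rab9b, the paralog of Rab9, ran from 18.1 to 23.9 CPM in control and from 5.36 to 19.9 CPM with verapamil, and fell by 0.70 on the log2 scale (SE 0.18, adjusted p = 0.0016). This was the largest decrease among the Rab genes. With the trend subtracted Rab9b kept its call, at -0.29 (adjusted p = 0.0024). With the covariates it stood at -0.04 (adjusted p = 0.71), and over sums per set it lost its call (adjusted p = 0.063). Of the 3 remaining Rabs, Rab40c, part of a ubiquitin ligase, rose by 0.16 ± 0.06 (adjusted p = 0.030) but stood at -0.06 with the covariates and -0.04 with the trend subtracted. Its call was lost without any one of C9, V4, V5, V6, V7 and V8, with an adjusted p of up to 0.0664.

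The ratios of paralogs chosen for their opposite calls were taken in each library as a description, and a ratio does not show that both members moved. The log2 ratio of Rab9 to Rab9b was -0.08 ± 0.15 in control and 0.95 ± 0.49 with verapamil (SD, n = 12), and all 12 verapamil libraries lay above every control. The log2 ratio of Rab8a to Rab8b was 5.17 ± 0.18 and 6.20 ± 0.84, with 8 verapamil libraries above every control. The log2 ratio of Rab5c to Rab5a was 1.43 ± 0.09 and 2.17 ± 0.74, also with 8 above. For Rab3a to Rab3b the ratio was -2.20 ± 0.65 and -1.40 ± 0.41, with 5 above. In each of these pairs the paralog that rose was richer in GC, with 45.6% against 41.3% for Rab9 and Rab9b and 54.7% against 46.7% for Rab5c and Rab5a.

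The experiment sets differed in how many Rab genes were called. Within set 1, 9 Rab genes were higher and 2 lower, against 13.7% and 14% of all genes. Within set 2, 15 were higher and 15 lower, against 26.3% and 30.9% of all genes. Within set 3, 8 were higher and 10 lower, against 19.9% and 23.4% of all genes. Within set 4 the edgeR test called 0 higher and 0 lower, against 0.317% and 0.0894% of all genes. The mean correlation of verapamil libraries with GC was 0.554 and 0.564 in sets 2 and 3 and 0.195 and 0.16 in sets 1 and 4. The 3 set 4 libraries of each group include 2 columns placed there by elimination. Of the 29 called Rab genes, 21 had the same direction in all 4 sets, and of the 18 not called, 1 did. The calls come from the same sets, so this count describes the selected genes and is no replication. Rab5a had log2 differences of 0.05, -0.95, -0.92 and -0.08 in sets 1 to 4, and Rab9b of -0.24, -1.40, -1.29 and -0.28. An interaction of experiment set and treatment passed the test for 4 Rab genes (8.51%, against 9.72% of all genes).

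**Figure D4:**
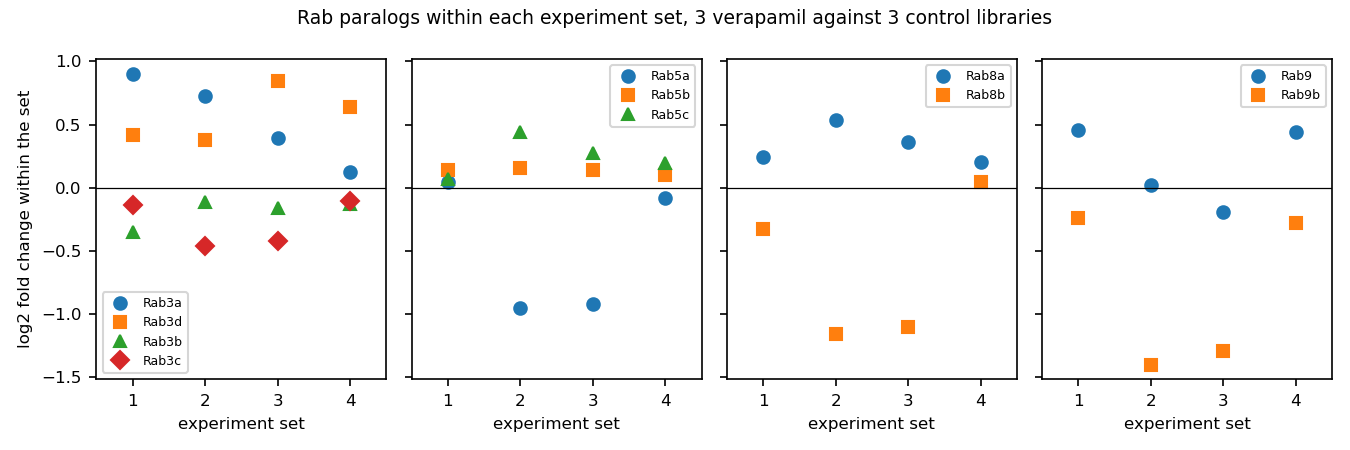
Log2 fold change of the Rab3, Rab5, Rab8 and Rab9 paralogs within each experiment set, from 3 verapamil and 3 control libraries. Rab5a, Rab8b and Rab9b lie lowest in sets 2 and 3, between -0.92 and -1.40, and nearer 0 in sets 1 and 4. With the GC and length covariates Rab5a and Rab8b turned above 0. With the trend subtracted they stood at -0.24 and -0.07.

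The Rab genes that rose and fell differed in GC content and exon length. The 18 genes called higher had a median GC content of 54.5% and a median exon length of 2497.5 bases. The 11 called lower had 41.9% and 4733 bases, against 49.8% and 4225.5 bases over all genes. Across the 47 Rab genes, the log2 fold change correlated with GC content at r = 0.708 and with log2 length at r = -0.305, as a description of genes that share the same libraries. Over all genes the values were 0.483 and -0.356. When the trend was subtracted, 21 Rab genes were higher and 3 lower, so that 51.1% of the Rab genes were called against 57.2% of all genes. With the slopes as covariates 29.8% were called against 35.3% of all genes. Of the 29 calls, 12 were kept with their direction when the trend was subtracted and 8 with the slopes as covariates. The same 8 genes passed both: Rab7, Rab9, Rab15, Rab22a, Rab34, Rab37 and Rab43 were higher and Rab3b lower. When counts were summed per set, where 41.7% of all genes were called, 6 of them still passed, all but Rab9 and Rab3b.

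**Figure D5:**
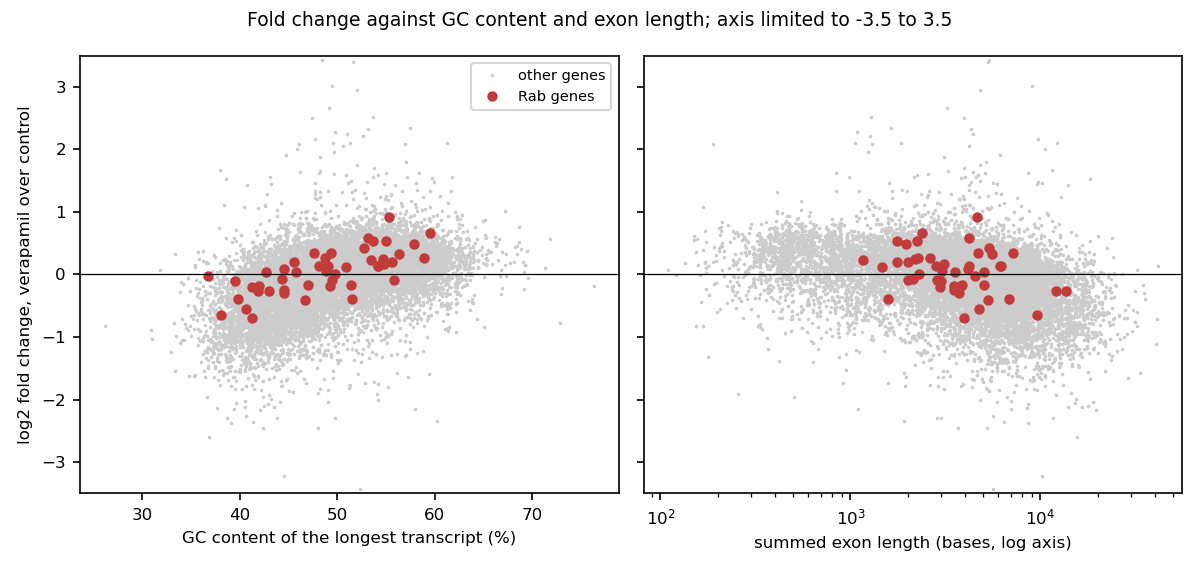
Log2 fold change against the GC content of the longest transcript (left, %) and the summed exon length (right, bases, log axis), with red points for the 47 Rab genes and grey points for other genes. The Rab genes rise with GC content (r = 0.708) and fall with length (r = -0.305).

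The genes that control the Rab cycle or act after it were counted over lists of known regulators and effectors. Of 7 measured genes for GDP dissociation inhibitors, escort proteins and prenylation, 3 were higher and 1 lower. Gdi2, a GDP dissociation inhibitor, had a log2 difference of -0.20 ± 0.10 (adjusted p = 0.074), which turned to 0.14 with the covariates. Chm, an escort protein for Rab prenylation, went from 38.7 ± 2.98 to 16.6 ± 11.9 CPM and fell by 1.21 on the log2 scale (SE 0.29, adjusted p = 0.0011), with -0.11 under the covariates (adjusted p = 0.32). Of 33 exchange factor genes 7 were higher and 11 lower, and of 38 GTPase-activating protein genes 13 were higher and 13 lower, beside 31.2% and 31.6% of all genes. With the covariates the exchange factors had 7 higher and 5 lower and the GTPase-activating proteins 13 and 2, beside 21.2% and 14.1% of all genes. With the trend subtracted the exchange factors had 13 and 7 and the GTPase-activating proteins 16 and 9, beside 31.7% and 25.5% of all genes. Hps1, part of an exchange factor for lysosome-related organelles, rose by 0.76 ± 0.14 (adjusted p = 6.3e-05), with 0.82 under the covariates. Rabac1, a Rab acceptor of the Golgi, rose by 0.66 (adjusted p = 0.010) and Rabggta, of the prenylating enzyme, by 0.25 (adjusted p = 0.011), and neither passed with the covariates. The exchange factor genes Dennd4a, Dennd4c and Dennd5b fell by 0.91, 0.99 and 0.50 on the log2 scale, but stood at 0.0013, -0.0091 and 0.03 with the covariates. Among the genes listed as GTPase-activating proteins, the 4 largest changes were decreases. Tbc1d8b, Tbc1d31, Tbc1d23 and Rabgap1l fell by 1.42, 0.85, 0.83 and 0.80. None of them passed with the covariates, and Rabgap1l stood at -0.13 there and at 0.23 with the trend subtracted. Tbc1d20, Tbc1d22a and Tbc1d19 are named here after their values were seen, since their groups did not overlap. Tbc1d20 and Tbc1d22a rose by 0.55 and 0.41, and Tbc1d19 fell by 0.72. With the covariates they stood at 0.44, 0.26 and -0.40, and all passed.

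Of 12 secretory effector genes, 3 were higher and 7 lower, with a median log2 fold change of -0.38, beside 31.2% and 31.6% of all genes. With the covariates the balance turned to 5 higher and 2 lower, with a median of 0.05, beside 21.2% and 14.1% of all genes. With the trend subtracted there were 3 higher and 6 lower (median -0.28), beside 31.7% and 25.5% of all genes. Sums per set gave 2 higher and 5 lower (median -0.37), beside 24.4% and 17.3% of all genes. Sytl4, the granuphilin gene, whose product links Rab27a and Rab3 to insulin granule docking, went from 319 ± 14.3 to 210.0 ± 35.1 CPM. It was below every control in 12 of 12 verapamil libraries and fell by 0.61 on the log2 scale (SE 0.07, adjusted p = 2.1e-07), with -0.30 under the covariates (adjusted p = 3.1e-07). Rims2, a Rab3 effector of the release site, fell by 0.56 (SE 0.18, adjusted p = 0.0083) but was called higher with the covariates, at 0.19 (adjusted p = 0.00033). Myo5a, a granule motor, fell by 0.81 (SE 0.24, adjusted p = 0.0051) but was called higher with the covariates, at 0.17 (adjusted p = 0.0066). Rims1, another release-site effector, fell by 0.75 (SE 0.15, adjusted p = 0.00015), with -0.28 under the covariates (adjusted p = 0.19). Ica1, named here after its values were seen, rose by 0.50 (adjusted p = 8.0e-10) and lay above every control in 12 of 12 verapamil libraries. Its value with the covariates was 0.41 (adjusted p = 3.3e-10). Of 24 endosomal effector genes 5 were higher and 7 lower, and of 13 Golgi effector genes 3 were higher and 7 lower, beside 31.2% and 31.6% of all genes. With the covariates these counts were 6 and 1 for the endosomal and 2 and 1 for the Golgi effectors, beside 21.2% and 14.1% of all genes. With the trend subtracted they were 5 and 5 for the endosomal and 3 and 6 for the Golgi effectors, beside 31.7% and 25.5% of all genes. Over sums per set the Golgi effectors had 2 higher and 0 lower, beside 24.4% and 17.3% of all genes. Eea1, the Rab5 tether of early endosomes, fell by 1.41 (SE 0.37, adjusted p = 0.0021), with -0.11 under the covariates (adjusted p = 0.54). Gcc2, a Golgi tether, fell by 1.49 (SE 0.33, adjusted p = 0.00052), with -0.40 under the covariates (adjusted p = 0.031). Myo5b, a motor of recycling endosomes, fell by 0.78 (SE 0.10, adjusted p = 6.1e-07), with -0.56 under the covariates (adjusted p = 0.00087). Of the endosomal effectors Appl1 and Rab11fip2, which fell by 0.87 and 0.68, the values with the covariates were -0.02 and 0.17. Wdr91 and Rilpl2, named here after their values were seen, lay above every control in 12 of 12 verapamil libraries. They rose by 0.54 and 0.38, with 0.42 and 0.12 under the covariates. The Golgi effector genes Tmf1, Bicd1 and Golga4 fell by 1.07, 1.00 and 0.69 but stood at -0.18, 0.02 and 0.10 with the covariates.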

How the data were processed

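RNA-seq of 12 verapamil and 12 control libraries was analysed. Raw counts of reads per gene were deposited by the authors and made, per the paper and the submitters' processing notes, with bcl2fastq 2.20, Trimmomatic 0.39, HISAT2 2.1.0 and HTSeq 0.9.1 on GRCm38 (mm10). Strand setting and annotation release: not given in the sources used here. Values of overlapping genes are therefore uncertain. The deposited table also holds the authors' own comparison (average log2 CPM, fold change as a ratio and as log2, p-value, adjusted p-value and its log10), which was not used. Groups came from the sample titles; the leading digit of the description was taken as the experiment set, a reading that no source states. The names of 4 columns match several samples, so these columns carry a group and no replicate number; they were placed in set 4 by elimination, and every value per set, sum, set block and interaction rests on that.

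Counts were filtered with filterByExpr (minimum count 10), scaled by TMM and tested with edgeR 4.0.16 in R 4.3.3 (quasi-likelihood test, no covariates, Benjamini-Hochberg over 12306 genes, threshold 0.05). Standard errors were derived from the log2 fold change and its F statistic. Exon length, GC content, coordinates and coding sequences came from GENCODE M21 (12308 of 12310 genes matched). Named are all Rabs of regulated secretion; up to 3 increases and 3 decreases of every other role group past the threshold with at least 1 CPM; the 5 highest per kb in control; up to 4 genes of each regulator list past the threshold with the largest change, beside Gdi2 and Chm (1 further gene of this part of the rule is not reported here); and paralogs with opposite calls. Genes marked in the text as named after their values were seen lie outside this rule. The members and lists were chosen with earlier results of these data known. Alternatives were size factors and DESeq2 1.42.0, other filters, experiment set or replicate blocks, sums per set, leaving out sets or libraries, and corrections for GC and length (a spline trend subtracted as an offset, or slopes per library as covariates). The scripts were tested on simulated data; figures used matplotlib.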

Additional observations from a re-analysis of the deposited data

Results flagged for a closer look

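The effect of verapamil differed between the experiment sets for 4 Rab genes by the interaction of set and treatment in the edgeR model. Rab9 had log2 differences of 0.46, 0.02, -0.19 and 0.44 in sets 1 to 4 (adjusted p of the interaction 0.0399). Rab6a had 0.11, -0.65, -0.70 and -0.10 (adjusted p of the interaction 0.0266). Rab5a had 0.05, -0.95, -0.92 and -0.08 (adjusted p of the interaction 0.0255). Rab9b had -0.24, -1.40, -1.29 and -0.28 (adjusted p of the interaction 0.0265). In all 4 genes the values of sets 2 and 3 lie below those of sets 1 and 4, and sets 2 and 3 are those with the higher correlation of verapamil libraries with GC content; the part of that trend was not tested.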

How the results depend on the processing

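DESeq2, its size factors, no filter and a minimum mean of 1 CPM kept all 29 Rab calls, and the experiment set as a block kept 28, all but Rab9. Same-numbered libraries were not paired by the data, since their deviations correlated at -0.0574 to 0.131 and 2 of 10 pairs exceeded 0.1. The replicate block gave 16 higher and 12 lower Rab genes (29.7% and 31.8% of all genes). The same numbered libraries without it gave 17 and 11 (31.5% and 31.4% of all genes), a comparison added after the data were seen. Rab9 had an adjusted p of 0.227 with the block. Sums per set left 15 higher and 2 lower (24.4% and 17.3% of all genes). Without experiment set 2 there were 11 higher and 4 lower (23.2% and 20.5% of all genes), and without set 3 there were 4 lower (23% of all genes). With the GC and length trend subtracted, 21 were higher and 3 lower (31.7% and 25.5% of all genes) and the median log2 fold change was 0.2159. With the slopes as covariates 13 were higher and 1 lower (21.2% and 14.1% of all genes). With the slopes and the set as covariates 13 were higher and 1 lower (21.6% and 14% of all genes), and the median was 0.1448. Leaving out single libraries turned no direction, and 25 of 29 Rab calls passed every time. A fit restricted to the verapamil libraries whose trends lay within the control range was run after the data were seen and is not used, because the trend separates the groups and such a choice selects libraries by an outcome. Among the genes named by rule, the log2 differences that turned direction with the trend subtracted were Dennd5b 0.22, Gdi2 0.44, Rab10 0.016, Rab11a 0.52, Rab14 0.48, Rab18 0.29, Rab1a 0.26, Rab24 -0.035, Rab2a 0.18, Rab30 0.25, Rab3c 0.55, Rab40c -0.043, Rabgap1l 0.23. Outside the rule the called genes Rab33a (-0.038) and Rab35 (-0.058) turned as well, beside Rab13, Rab28, Rab29 and Rab39, which were not called in the main fit. With the trend subtracted Rab28 was called higher, at 0.83 (edgeR, adjusted p = 1.2e-05), the highest value of the Rab genes in that setting. With the slopes as covariates the values that turned among the genes named by rule were Bicd1 0.022, Dennd4a 0.0013, Dennd5b 0.033, Gdi2 0.14, Golga4 0.10, Myo5a 0.17, Rab10 0.10, Rab11fip2 0.17, Rab14 0.036, Rab18 0.18, Rab1a 0.13, Rab1b -0.051, Rab27a 0.22, Rab2a 0.087, Rab40c -0.062, Rab4b -0.0048, Rab5a 0.16, Rab5c -0.0035, Rab6a 0.13, Rab8b 0.17, Rims2 0.19. Outside the rule Rab6b, Rab11b, Rab13, Rab28, Rab29 and Rab39 turned, and Rab39 was then called (0.40). With the slopes and the set they were Bicd1 0.020, Dennd5b 0.085, Gdi2 0.17, Golga4 0.064, Myo5a 0.21, Rab10 0.12, Rab11fip2 0.25, Rab14 0.058, Rab18 0.23, Rab1a 0.15, Rab1b -0.036, Rab27a 0.30, Rab2a 0.12, Rab40c -0.072, Rab4b -0.11, Rab5a 0.18, Rab6a 0.15, Rab8b 0.24, Rims2 0.18. Without experiment set 1 Rab26 stood at 0.028, and without set 3 Rab2a at 0.00021. The treatment and these slopes share variance (inflation 2), so the trend and the treatment cannot be told apart; the cause of the changed calls was not tested.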
